A study of Mus musculus with 3 samples.

Results

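Ion exchangers, cotransporters, pumps and channels were examined in macrophages sorted from mouse kidneys. Members were the rows of the deposited table whose gene symbol names a family of sodium, proton, bicarbonate, chloride, phosphate, sulfate, calcium or potassium transport. The families were Slc4, Slc8, Slc9, Slc12, Slc20, Slc24, Slc26 and Slc34, the potassium channel genes (Kcn), the sodium pump (Atp1a and Atp1b), Clcn, Trpc, Trpm and Trpv, P2rx, Piezo, Hvcn1, Orai and Stim. The rule found 82 of the 14811 listed genes. Of these, 76 encode a transporter, a channel subunit or a direct calcium sensor, and 6 were caught by name only: the scaffold genes Slc9a3r1 and Slc9a3r2, Trpc4ap, Slc4a1ap, the antisense transcript Kcnab3os and Kcnrg.

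The libraries came from 3 C57BL6/J mice, which form the only group (replicates 1 to 3). Each animal was given PBS, a salt solution used as a vehicle, by the intravenous route, and its kidneys were removed 1 h later. The digested tissue was sorted by flow cytometry for macrophages. The sources used here give neither ages nor the surface markers of the sort, and there is no second group. Levels, within-library ratios and the differences among mice are therefore described. Reads over the listed genes numbered 50951549, 56718534 and 50646558 in mice 1, 2 and 3. Values are normalised read counts (reads divided by a size factor per library), given for mice 1, 2 and 3 or as mean ± SD over n = 3 mice. Of 11 listed macrophage markers, 10 had at least 1000 in each mouse. The exception was Itgam, which encodes CD11b.

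Ion transport shapes how a macrophage works. The sodium pump sets the sodium and potassium gradients, and potassium channels set the membrane voltage that draws calcium in. Calcium enters through Orai pores, which Stim sensors open when internal stores run low, and through P2X and TRP channels. Proton, chloride and bicarbonate exchangers set the pH of the cytosol, endosomes, phagosomes and lysosomes. Several of the same families also carry the bulk salt, phosphate and bicarbonate transport of the kidney tubule, in the tissue from which these macrophages were sorted.

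Of the 82 members, 34 had at least 10 normalised reads in each mouse, or 41.5%, against 44.4% of all listed genes. At 1000 or more in every mouse were 6 members, against 14.7% of all listed genes: Atp1b3, Clcn4, Trpm7, Slc4a7, Slc9a9 and P2rx4. That count was 8 without mouse 2, 9 without mouse 1 and 12 without mouse 3, where fewer mice can only raise it. In all, 51 members were above 0 in every mouse, or 62.2%, against 71% of all listed genes. Above 0 in only 2 mice were 6 members (7.32%, against 12.7% of all listed genes), and in only 1 mouse 18 members (22%, against 9.69%). The other 7 were at 0 in every mouse (8.54%, against 6.59% of all listed genes), namely Kcnd3, Kcnt2, P2rx1, Piezo1, Slc24a1, Slc4a10 and Trpm4. The limit that 0 reads allow, 3 reads of a library, corresponds to a level of 2.42 for mouse 1, 1.66 for mouse 2 and 2.11 for mouse 3, for counting error only. Members had a median log2(value + 1), averaged over mice, of 4.97, against 5.98 over all listed genes.

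Longer transcripts collect more reads, so levels of different genes were compared per kb of exon. On that scale the sodium pump family held 29.4% ± 4.65 of the summed level of the members, the potassium channel genes 14.3% ± 5.22, Slc9 11.4% ± 2.88 and Clcn 8.35% ± 3.34. These shares include the rows caught by name only. The Slc9 share thus holds the scaffold gene Slc9a3r1, at 293, 837 and 148 per kb in mice 1, 2 and 3, and is not that of exchangers alone. Atp1b3, a beta subunit of the sodium pump, was the highest member in each of the 3 libraries, at 2421, 2448 and 3031 normalised reads per kb (mean 2633 ± 345). Slc34a1 followed at 850 ± 872 per kb, then Atp1b1 at 698 ± 766, Clcn4 at 553 ± 452, Slc9a9 at 484 ± 190, Orai1 at 475 ± 426 and Kcnk13 at 431 ± 357. Neighbours in this order below Atp1b3 differed in mean by less than their SD between mice. Within a library, Slc34a1 was above Atp1b1 in each mouse (513, 1840 and 196 against 375, 1573 and 147). The order of the other neighbours changed between mice. Trpm7 (378 ± 37.4 per kb) and P2rx4 (366 ± 51.9 per kb) were lower in mean but varied far less.

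**Figure D1:**
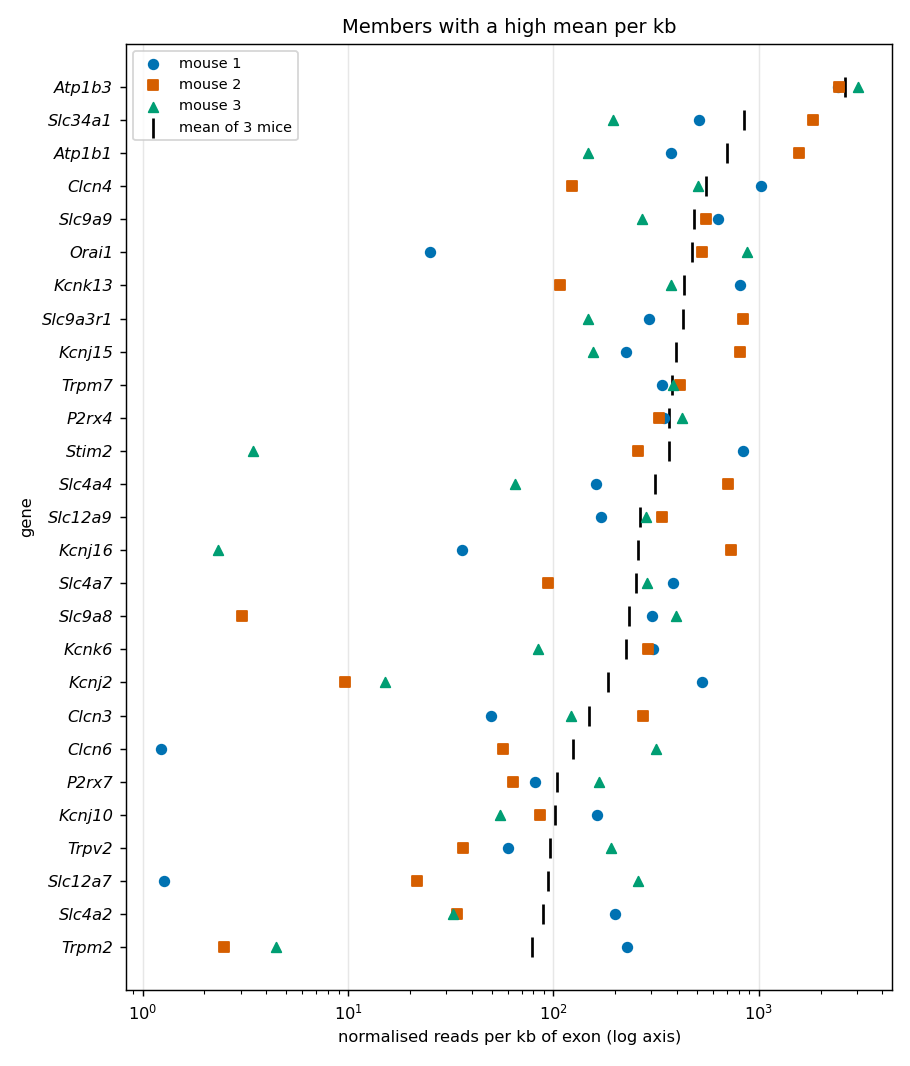
Normalised reads per kb of exon (log axis) of 27 of the 30 members with the highest mean per kb, one row per gene, with one symbol per mouse and a bar for the mean of 3 mice. Atp1b3 lies to the right of every other member, between 2421 and 3031, with its 3 mice close together, while Stim2, Clcn6 and Slc12a7 spread over 100-fold or more.

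Sodium pump genes included 2 well-detected beta subunits. Of 8 fixed genes 4 were listed, and 3 were at 10 or more in every mouse. Of the beta subunits, Atp1b3 was at 5784, 5848 and 7242 normalised reads, and its mice were within 1.25-fold of each other. Atp1b1, the beta subunit typical of tubule epithelium, was at 1156, 4848 and 452, highest in mouse 2. Within a library and per kb, Atp1b3 exceeded Atp1b1 in 3 of 3 mice (log2 ratio 2.56 ± 1.87 SD), with the smallest Atp1b3/Atp1b1 ratio, 0.64, in mouse 2. With 3 libraries the smallest p of an exact two-sided sign-flip test is 0.25, so no ratio reported here could pass a threshold of 0.05. This ratio gave exact p = 0.25.

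Sodium-proton exchangers of intracellular membranes were well detected. Of 9 fixed genes 6 were listed, and 3 were at 10 or more in every mouse, Slc9a8 and Slc9a9 among them. Per kb, Slc9a9 had a mean of 484 ± 190 and Slc9a8 of 232 ± 204. Within a library their order per kb differed between mice. Slc9a9 was the higher in mice 1 and 2 (631 against 301, and 552 against 3.05) and the lower in mouse 3 (269 against 394). Slc9a9, which encodes the late endosomal exchanger NHE9, was at 3582, 3134 and 1530.1. Slc9a8, whose product NHE8 sits in the Golgi and endosomes and in the brush border of the proximal tubule, was at 2735, 27.7 and 3581, low in mouse 2. Slc9a2 (2.42, 76.6 and 0.705) and Slc9a5 (0.806, 62.7 and 0.705) were low outside mouse 2. The scaffold gene Slc9a3r1, whose product binds exchangers at the apical membrane of epithelia, was at 565, 1611 and 284.

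Among bicarbonate transporters, 4 of 10 fixed genes were listed and 3 were at 10 or more in every mouse. Slc4a7, which encodes the electroneutral sodium-bicarbonate cotransporter NBCn1, was at 5784, 1429 and 4368. Slc4a2, the chloride-bicarbonate exchanger AE2, was at 1665, 283 and 269.9. Per kb, Slc4a7 exceeded Slc4a2 in 3 of 3 mice (log2 ratio 1.84 ± 1.16 SD, exact sign-flip p = 0.25). Slc4a4, which encodes the cotransporter NBCe1 that moves bicarbonate out of proximal tubule cells, was at 1749, 7678 and 701, highest in mouse 2. Of the sulfate and anion transporters, Slc26a2 was even across mice (1219, 772 and 780.2), whereas Slc26a11 (360, 134 and 1.41), Slc26a6 (1.61, 145 and 144) and Slc26a1 (7.26, 189 and 9.87) were not.

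The cation-chloride cotransporters, which set cell volume and chloride, differed widely between mice. Of 9 fixed genes 7 were listed, and 3 were at 10 or more in every mouse. Slc12a9, a family member without an established substrate, was the even one at 856, 1693 and 1416. The potassium-chloride cotransporter gene Slc12a7 (KCC4) was at 16.1, 276 and 3279, highest in mouse 3. Slc12a2, which encodes the sodium-potassium-chloride cotransporter NKCC1, was at 4.03, 1249 and 1.41, with the largest SD on the log2 scale (4.93) of the 39 members at a mean of 100 or more. Slc12a4 had at most 3 reads in any mouse.

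Phosphate enters most cells through Slc20 cotransporters and the proximal tubule through Slc34 ones. In normalised reads, Slc20a1 was at 29.8, 96.6 and 559.6 and Slc20a2 at 3.23, 171 and 0. The tubule gene Slc34a1, which encodes NaPi-IIa, was at 2399, 8606 and 915. Its mean per kb was 850 ± 872, against 41.0 ± 51.7 for Slc20a1 and 9.34 ± 15.7 for Slc20a2. Within each library Slc34a1 was the highest of these per kb, at 513, 1840 and 196 in mice 1, 2 and 3. Slc20a1 was at 5.35, 17.3 and 100 per kb, and Slc20a2 at 0.519, 27.5 and 0. The size of the lead differed widely between mice. Slc34a3 had 1 read in mouse 2 and 0 in both others. Of 5 fixed phosphate cotransporters 4 were listed, and 2 of them passed 10 in each mouse. Sodium-calcium exchangers were low apart from Slc8a1 in mouse 2. Of 8 fixed genes 3 were listed, and none was at 10 or more in every mouse. Slc8a1 was at 4.03, 215 and 2.82, Slc24a5 at 12.1, 0 and 0, and Slc24a1 at 0 in every mouse.

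Store-operated calcium entry was represented by 5 of 5 fixed genes, of which Orai1 and Stim2 were at 10 or more in every mouse. Stim2, a calcium sensor of the endoplasmic reticulum, was at 4281, 1332 and 17.6. Orai1, the pore, was at 57.3, 1211 and 2003. Stim2 was thus highest in the mouse with the lowest Orai1 and lowest in the mouse with the highest Orai1, in these 3 libraries. Stim1, the other sensor, had 1 read in mouse 1 and 0 in both others, against 5308, 2400 and 25 reads of Stim2. Orai3 was at 1.61, 215 and 11.3, and Orai2 was at 0, 0 and 19.0. Among partners outside the families, Saraf, which slows this entry, was even at 3282, 3907 and 4598, and Tmem110, a Stim regulator, was at 1127, 3.33 and 2.11.

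P2X receptors open to extracellular ATP. P2rx4 was at 2419, 2309 and 2988, within 1.29-fold across mice, and P2rx7, the receptor that leads to potassium loss and inflammasome activation, was at 484, 381 and 996. Both were at 10 or more in every mouse, out of 4 listed of 7 fixed genes. P2rx4 exceeded P2rx7 per kb by 2.08, 2.36 and 1.35 log2 units (mean 1.93 ± 0.52 SD, 3 of 3 mice, exact sign-flip p = 0.25). P2rx1 was at 0 in every mouse, and against a floor of 3 reads per library P2rx4 was at least 374-fold and P2rx7 at least 87.9-fold higher per kb. P2rx5 had 1 read in mouse 2 alone.

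Potassium channel genes formed the largest family, with 19 rows including Kcnrg and Kcnab3os, of which 6 had at least 10 in each mouse. The 6 were Kcnj2, Kcnj10, Kcnj15, Kcnk5, Kcnk6 and Kcnk13. The 2-pore channel gene Kcnk13 (THIK-1, a background channel known from microglia) was at 2532, 335 and 1158, and Kcnk6 (TWIK-2, known for potassium efflux in macrophages) was at 1264, 1194 and 350.3. The order of Kcnk6 and Kcnk13 per kb differed between mice, with log2 ratios of -1.42, 1.41 and -2.14. Kcnj2, which encodes the inward rectifier Kir2.1, was at 2884 in mouse 1 but 52.7 and 82.5 in mice 2 and 3. Kcnn4, the calcium-activated channel KCa3.1, had 187 in mouse 3 and 0 in both others. Kcnk5, which encodes the acid-sensitive channel TASK-2, was at 65.3, 149 and 20.4. Kcnk12 was likewise above 0 only in mouse 3 (200.2) and Kcng2 only in mouse 1 (121). Kcnab3 and its antisense partner Kcnab3os had 16 and 15 reads, all in mouse 3, Kcnj9 had 14 reads, all in mouse 1, and Kcnh7 had 1 read. In the annotation used for exon lengths, Kcnab3 and Kcnab3os share 147 bases on opposite strands, of 2865 and 566 exon bases. Whether the counting used strand is not given, so reads in the shared bases cannot be assigned to either gene. How many of the reads lie there was not tested.

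Of the TRP channels, Trpm7 was the steadiest of all members at a mean of 100 or more. This channel fused to a kinase, which passes magnesium, calcium and zinc, was at 3828, 4668 and 4346 (SD 0.14 on the log2 scale). Trpm2, a calcium channel opened by oxidants through ADP-ribose, was at 2857, 31.1 and 55.7, high in mouse 1 alone. Trpm7 exceeded Trpm2 per kb in 3 of 3 mice, by 0.56, 7.32 and 6.40 log2 units (mean 4.76 ± 3.67 SD, exact sign-flip p = 0.25). Trpv2 was at 270.2, 163 and 858, and Trpv4 at 226, 439.5 and 37.4, so their order differed between mice. Trpm4 had no reads at all. Per kb, Trpm7 was at least 1514-fold higher than Trpm4 against the floor of 3 reads per library. The mechanosensitive channel gene Piezo1 was at 0 in every mouse too. Of the canonical TRP genes, Trpc1 was at 3.23, 62.2 and 1.41 and Trpc4 at 31.5, 0 and 0, while Trpc4ap, which encodes a TRPC4-binding protein, was at 158, 677 and 464. Hvcn1, the voltage-gated proton channel that supports the oxidative burst of phagocytes, was at 165, 0 and 0, and exons of Tctn1 on the opposite strand cover 44.2% of its exon bases.

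Endosomal and lysosomal chloride-proton exchangers were listed in full from Clcn3 to Clcn7. Clcn4 was at 8794, 1062 and 4361, Clcn3 at 849, 4670.2 and 2088, and Clcn5 at 826, 933 and 4.23. Clcn6 was at 7.26, 338 and 1883. Clcn7, the exchanger of lysosomes, was at 87.1, 675 and 56.4, and was lower than Clcn3 per kb in 3 of 3 mice (log2 ratio -2.06 ± 1.27 SD, exact sign-flip p = 0.25). Its obligate partner Ostm1 was at 76.6, 1682 and 1457, and the Clcn7/Ostm1 ratio changed sign between mice (0.63, -0.87 and -4.22). Of the 7 listed chloride channel and exchanger genes 3 passed 10 in each mouse. The surface channel gene Clcn2 was at 202, 1.11 and 0.

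**Figure D2:**
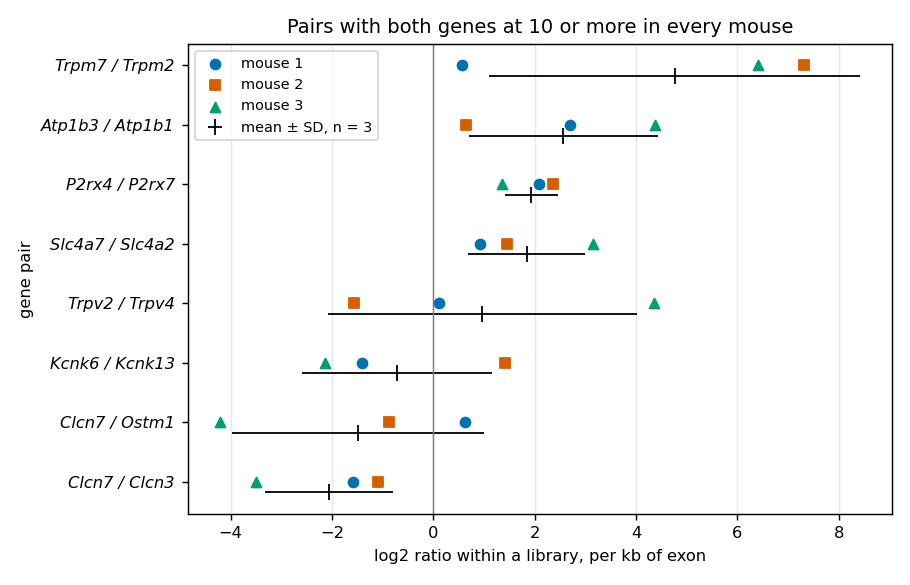
Log2 ratio of both genes within a library, per kb of exon, for 8 pairs with both genes at 10 or more in every mouse, with one symbol per mouse and a bar for the mean ± SD (n = 3). The first gene was on one side of 0 in 3 of 3 mice for 5 of these, and P2rx4/P2rx7 had the tightest mice (1.35 to 2.36).

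Pairs of related genes numbered 24 in all, of which 21 had both genes listed. In 13 of the 21 the ratio per kb had the same sign in 3 of 3 mice. With both genes at 10 or more throughout, the number was 6 of 10.

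Some transporters known from the nephron were among the higher members and others were low, and most were highest in the same mouse. Of 18 fixed nephron transporter genes 12 were listed. At 10 or more in every mouse were 4 of the 12, against 44.4% of all listed genes: Slc34a1, Slc4a4, Kcnj15 and Kcnj10. Of the 12, 10 were highest in mouse 2, where 35.5% of all genes above 0 were highest, and 8 had the order mouse 2, mouse 1, mouse 3, which 16.5% of all genes above 0 had. Kcnj15, which encodes the inward rectifier Kir4.2 of the proximal tubule, was at 1429.9, 5103 and 980.4. Its partner in that membrane Kcnj16 (Kir5.1) was at 142, 2898 and 9.16. Slc12a1, the loop diuretic target NKCC2 of the thick ascending limb, was at 90.3, 812 and 4.93, and Kcnj1, the channel ROMK of the same segment, at 46.0, 219.8 and 4.93. Slc12a3, the thiazide target of the distal convoluted tubule, was at 10.5, 41.1 and 4.23, and Trpv5, an epithelial calcium channel of the distal nephron, at 0, 174 and 0. The exceptions to the lead of mouse 2 were Kcnj10 (885, 465 and 297) and Slc26a4 (0, 1.11 and 155).

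Proximal tubule markers outside the families were in the same order, and distal markers were so in part. All 8 fixed proximal tubule markers were listed, and 8 of 8 had the order mouse 2, mouse 1, mouse 3. Their summed level was 55954, 203277 and 30382, or 0.136%, 0.646% and 0.0851% of the normalised reads. Kap was at 35490.3, 172061 and 13511, and the endocytic receptor gene Lrp2 was at 1697, 8594 and 122. Gatm was nearly even (18406, 19146 and 16676.5), and Slc5a2 was at 0.806, 130.4 and 0. The 9 fixed distal nephron and collecting duct markers, of which Slc12a1, Slc12a3 and Slc26a4 are also members, summed to 274, 7034 and 1301. Of these 9, 7 were highest in mouse 2 and 4 had the order mouse 2, mouse 1, mouse 3. Umod, the uromodulin gene of the thick ascending limb, was at 40.3, 598 and 998, highest in mouse 3, as was Slc26a4. Mouse 2 also had more genes detected, with 71.1% of listed genes at 10 or more, against 59.7% in mouse 1 and 59.1% in mouse 3. None of the 11 macrophage markers was highest in mouse 2. The part of tubule RNA in the members' levels was not tested, and in bulk libraries fewer cells of a type and less RNA per cell cannot be told apart.

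**Figure D3:**
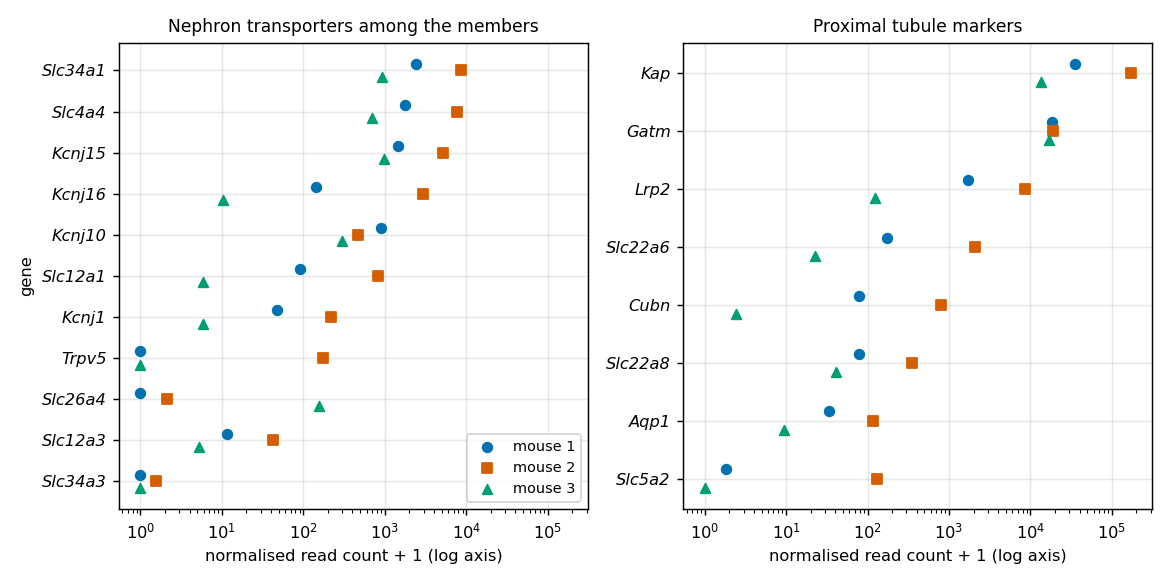
Normalised read count + 1 (log axis) in each mouse for 11 nephron transporters among the members (left) and the 8 proximal tubule markers (right), one symbol per mouse. Squares of mouse 2 lie to the right for 9 of the 11 transporters and for 8 of 8 markers, and triangles of mouse 3 to the left for most.

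The members took 0.163%, 0.239% and 0.140% of the normalised reads of mice 1, 2 and 3 (0.181% ± 0.0521). Without the nephron list and Atp1b1, the shares were 0.143%, 0.141% and 0.130% (0.138% ± 0.00725), so the SD between mice was lower. Leaving these genes out was decided after their values were seen.

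For some other cell types few fixed markers were listed. Of the endothelial markers Kdr was at 453, 7.77 and 1345, Pecam1 at 4.84, 0.555 and 0.705, and the 6 listed genes summed to 545, 135 and 1393. Of 4 listed fibroblast and pericyte markers Dcn was at 906, 0.555 and 154, and the list summed to 951, 63.8 and 183. Only 1 of 7 fixed T, B and NK cell markers was listed, the T cell gene Cd3e, and only 1 of 5 neutrophil markers, S100a9; both were at 0 in every mouse. Of 8 red cell and platelet markers 4 were listed. The haemoglobin gene Hba-a1 and the platelet gene Itga2b were at 0 in every mouse, while Pf4 was at 6359.8, 6796 and 5290 and Ppbp at 2.42, 1.11 and 1698.

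To show the start regions of members that were steady or that varied with the tubule markers, promoter sequences from RefSeq (build GRCm38.p6, 250 bases before to 50 after the annotated start, 5′ to 3′ on the gene's strand) are given for genes with a single listed start. Slc34a1 (chr13:55399398-55399697, plus strand) and Kcnj15 (chr16:95257308-95257607, plus strand) were the highest such nephron transporters. Trpm7 (chr2:126876212-126876511, minus strand) and P2rx4 (chr5:122707294-122707593, plus strand) were the steadiest such members. Capitals mark matches, on either strand, to GTTAAT (found in sites of the tubule factor HNF1), AGGAAGT (found in sites of the myeloid factor PU.1) and CACGTG (an E-box).
Slc34a1: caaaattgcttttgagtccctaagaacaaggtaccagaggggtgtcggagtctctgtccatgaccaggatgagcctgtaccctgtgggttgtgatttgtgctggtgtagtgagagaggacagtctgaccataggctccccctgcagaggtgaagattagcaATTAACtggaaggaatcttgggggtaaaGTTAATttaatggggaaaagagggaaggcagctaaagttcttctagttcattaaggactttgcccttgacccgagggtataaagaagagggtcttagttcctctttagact
Kcnj15: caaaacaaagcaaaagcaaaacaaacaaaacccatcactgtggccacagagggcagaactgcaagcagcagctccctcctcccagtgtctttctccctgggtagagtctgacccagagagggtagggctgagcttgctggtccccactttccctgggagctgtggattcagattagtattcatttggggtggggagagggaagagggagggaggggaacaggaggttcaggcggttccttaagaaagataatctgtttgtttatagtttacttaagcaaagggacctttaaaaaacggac
Trpm7: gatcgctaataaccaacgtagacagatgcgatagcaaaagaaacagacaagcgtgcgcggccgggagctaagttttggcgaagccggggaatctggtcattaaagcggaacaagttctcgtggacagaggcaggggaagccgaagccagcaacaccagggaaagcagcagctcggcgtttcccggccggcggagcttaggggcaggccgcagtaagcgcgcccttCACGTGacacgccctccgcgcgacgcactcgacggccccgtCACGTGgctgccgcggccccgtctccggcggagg
P2rx4: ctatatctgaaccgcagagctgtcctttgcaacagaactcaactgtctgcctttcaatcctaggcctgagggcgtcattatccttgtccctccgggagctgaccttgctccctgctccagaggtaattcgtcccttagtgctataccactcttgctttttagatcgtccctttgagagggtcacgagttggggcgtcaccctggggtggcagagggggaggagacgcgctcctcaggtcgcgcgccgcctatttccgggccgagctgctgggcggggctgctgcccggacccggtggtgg

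The Slc34a1 window held 2 matches to GTTAAT, of which 7.1% of 32851 promoters of the same length hold at least 1. The Trpm7 window held 2 matches to CACGTG, of which 7.15% of all promoters hold at least 1. The share of promoters with 2 matches was not counted. No letters of the 3 motifs were found in the Kcnj15 and P2rx4 windows. Of the members, 63 had 81 promoters in the table. GTTAAT was in 3 of these (3.7%), AGGAAGT in 9 (11.1%, against 9.35% of all promoters) and CACGTG in 14 (17.3%). A match describes letters and does not show binding.

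The members ranged from steady to highly variable between mice. At a mean of 100 or more were 39 members, of which 5 stayed within 2-fold across mice (12.8%, against 13.7% of all such genes): Atp1b3, Trpm7, P2rx4, Slc12a9 and Slc26a2. A range of over 10-fold was seen in 18 of the 39 (46.2%, against 54.9% of all such genes). For the 61 members whose mean was at least 10, the SD of log2(value + 1) had a median of 2.62, against 2.55 over all such genes. At a mean of 100 or more it was 1.55, against 2.05 over all such genes. Without mouse 2 it was 1.31 at a mean of 10 or more, against 1.80 over all such genes, whereas without mouse 1 (2.29, against 1.65) and without mouse 3 (2.06, against 1.73) the members' median was the higher one. Besides Slc12a2, the largest SDs among members at a mean of 100 or more were those of Clcn5 (4.27) and Stim2 (4.13). At 0 in at least 1 mouse and at 100 or more in another were 9 members (11%, against 5.87% of all listed genes): Kcnrg, Clcn2, Kcnk12, Kcnn4, Slc20a2, Trpv5, Hvcn1, Slc26a4 and Kcng2. That count was 4 without mouse 1 and 4 without mouse 3, where fewer mice can only lower it.

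**Figure D4:**
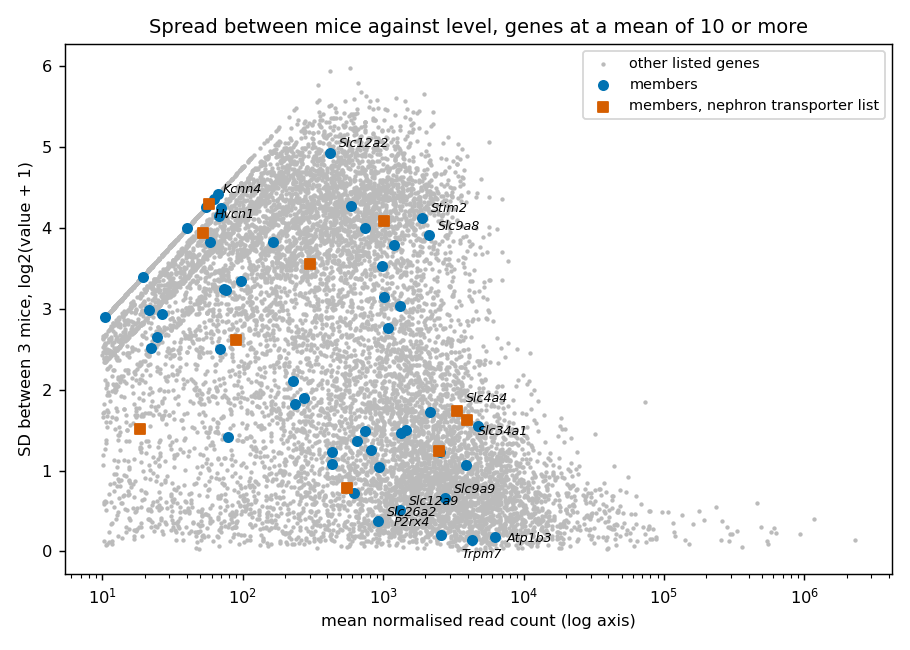
SD of log2(value + 1) over 3 mice against the mean normalised read count (log axis) for genes at a mean of 10 or more, with members in blue, members of the nephron list as orange squares and other listed genes in grey. Atp1b3, Trpm7 and P2rx4 lie at the bottom right with SDs of 0.20 or less, and Slc12a2 is the highest of the members with 4.93.

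Of the 21 listed members among 23 channels and exchangers known from macrophages, 13 were at 10 or more in every mouse, against 44.4% of all listed genes. At 1000 or more were 2 (Trpm7 and P2rx4, against 14.7% of all listed genes). At 0 throughout were 2 (Piezo1 and Trpm4, against 6.59%). Partners and regulators outside the families were also read from a fixed list, of which 31 of 37 were listed. Of the 31, 20 had at least 10 in each mouse, against 44.4% of all listed genes. At 1000 or more in every mouse were 7, against 14.7% of all listed genes, among them Wnk1, Fxyd5, Fxyd2, Saraf, Atp2b1 and Car2. Fxyd5, a modulator of the sodium pump, was at 85166, 70418 and 82771, whereas Fxyd2, the pump modulator of the tubule, was at 2361, 16964 and 4108 and was highest in mouse 2. Wnk1, the kinase that controls cation-chloride cotransporters, was at 23026, 11083 and 33715, and of the kinases it acts through, Oxsr1 was at 50.0, 113 and 7.75 and Stk39 was at 2.42, 42.2 and 0.705. The lysosomal potassium and proton channel gene Tmem175 was at 2471, 3549 and 4.93, and the phosphate exporter gene Xpr1 was at 258, 2558 and 3385.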

How the data were processed

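The samples were 3 RNA-seq libraries from sorted kidney macrophages, made per the labels' protocols after 30 min of digestion with a low-input kit that amplifies cDNA (SMART-seq v4) and then, from 10 ng of cDNA, with 8 PCR cycles. The deposited table holds a normalised signal, for which the authors used, per the submitters' processing notes, HTSeq 0.5.4 and DESeq 1.18.0 with mouse build mm9. No source used here gives the aligner, the gene annotation or the strand setting of the counting. Deposited values had a minimum of 1, and after 1 was subtracted, 100% of values lay within 0.05 of a whole number of steps, each step being 1 read (0.806 for mouse 1, 0.555 for mouse 2 and 0.705 for mouse 3). Reads of amplified cDNA are not molecules, so floors cover counting error only.

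Exon lengths were unions of exons from GENCODE M21, matched by gene identifier (99.6% of listed genes, 82 of 82 members). That annotation is of a later build and was used for lengths and overlaps only. Ratios within a library used log2(value + 1) per kb, which understates differences of low genes, with an exact sign-flip test. With 1 group no count test was possible. Members, lists and pairs were chosen with earlier results of these data known. Named genes were the 30 highest means, the fixed lists and pairs, members at 0 in a mouse and 100 or more in another, and the 3 smallest and 3 largest SDs. A few genes are counted but not reported singly here. Python 3.11.15, numpy 2.4.6, pandas 2.3.3 and matplotlib 3.10.9 were used.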

Additional observations from a re-analysis of the deposited data

How the results depend on the processing

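With each mouse left out in turn, the count of members at 1000 or more in every mouse (6) ranged from 8 to 12. The count at 0 in a mouse and 100 or more in another (9) ranged from 4 to 6. By construction, fewer mice can only raise the former count and only lower the latter. The same counts over all listed genes with a mouse left out are not given here. The median SD between mice (2.62) ranged from 1.31 to 2.29. With reads scaled to library totals, the count at 1000 was 12. That scaling shifted the median gene by 0.36, 0.74 and 0.56 log2 units in mice 1, 2 and 3. The median SD was 1.71 with a pseudocount of 10 and 1.55 over members at a mean of 100 or more (1.80 and 2.05 over all such genes). Of pairs with both genes above 0 in every mouse, 7 had 1 sign in 3 of 3 mice, where fewer pairs enter by construction. The other counts stayed within 1.5 times their value and the medians and shares within 1 SD between mice under every alternative run. Of the alternatives for single pairs 113 of 120 stayed within 1 SD, as did 114 of 120 for single levels. These counts overstate stability, because leaving out 1 of 3 mice cannot move a mean, the share included, by 1 SD. The levels that moved did so with reads scaled to library totals. The pairs that moved did so with another pseudocount or without division by exon length. Under those 2 kinds of change, no mean ratio with the same sign in 3 of 3 mice reversed. Leaving out a mouse could not reverse such a ratio. For P2rx7/P2rx1 this says little, as P2rx1 was at 0 in every mouse. Scaling to library totals multiplied all values of a library by a constant factor that raised them. Under that scaling the levels and the count at 1000 could thus only rise. The cause of the other shifts was not tested. No paired analysis was possible because the series has a single group. With 3 mice the precision is limited by their number, and depth limits what a count of 0 shows.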
